A study of Mus musculus with 20 samples.

Results

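The 39 genes described here encode proteins that license and carry out DNA replication, supply its nucleotides, or drive and order chromosome segregation, and they were taken by name from a list of well-known cell cycle and proliferation genes. All 39 were found among the 35579 genes to which the deposited transcript counts could be summed. They were followed in 2 tissues of the left hindlimb, skin and skeletal muscle, of wild-type C57BL/6J mice, 70 days after sham handling without irradiation or after 35 Gy of electrons from an ElectronFlash linear accelerator. The electrons were given in the FLASH modality, at ultra-high dose rate (FLASH group), or in the conventional modality (CONV group). Each tissue had 3 sham, 4 FLASH and 3 CONV RNA libraries, 20 in all. The ages of the mice were not given in the sources used here.

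The cell cycle genes form a programme that dividing cells switch on in a fixed order. In G1, cyclin E and the E2F transcription factors commit the cell to S phase, licensing factors load the MCM helicase on DNA, and the cyclin A, cyclin B and CDK1 kinases then drive mitosis, in which kinesins, Aurora kinases and the spindle checkpoint sort the chromosomes. In skin the dividing cells are mainly basal keratinocytes and, while a hair is growing (anagen), the matrix cells at the base of the follicle, among the fastest dividing cells of the body. Resting hair follicles (telogen) have no such matrix. Muscle fibres are post-mitotic, and division in resting adult muscle is rare and confined to other cells, such as satellite cells activated by injury.

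Several libraries stood apart or went against their labels. In 7 records, 2 of skin and 5 of muscle, the deposited file was named as the library of a different record: skin sham replicate 3 and FLASH replicate 1, and muscle sham replicates 2 and 3 and FLASH replicates 1, 2 and 3. Groups below follow the record, no CONV library was affected, and CONV was therefore also compared with the 7 sham and FLASH libraries pooled. In skin, sham 1 and FLASH 2 (numbers after a group name are replicate numbers) held 31708 and 31494 CPM (counts scaled to the library size) of 12 fast muscle fibre genes in sum, against 74.4 to 4118 CPM in the other 8. In muscle, the inner root sheath keratin gene Krt71 was at 12.2 CPM in FLASH 4 and 1.80 CPM in CONV 3 and at 0 in the other 8, and the same 2 libraries were richest in the haemoglobin gene Hbb-bs (186 and 561 CPM, against 21.3 to 75.1). The 6 defining keratinocyte genes summed to 5583 to 52074 CPM in skin and to 0.764 to 7.35 CPM in muscle. Each skin library totalled 24396463 to 33250762 estimated counts, and each muscle library 10198699 to 12336479. The labels do not say that replicates came from separate animals, and the p-values then cover only the spread among these libraries, part of which may be technical.

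The promoters of 4 members, those of highest skin level among the mitotic and among the replication genes, are shown first, because promoter elements for cell cycle timing are a well-known feature of this programme and the skin libraries fell in a common order for most members. They are from the RefSeq promoter table of build GRCm38.p6, each from 250 bases before to 50 bases after the annotated start, on the minus strand and written 5′ to 3′ along the gene. Capitals mark 3 motifs searched on both strands: the cell cycle genes homology region TTTGAA (CHR), a repressor-bound element of mitotic genes, the CCAAT box, bound by NF-Y, and the E2F site in the form TTTNNCGC. Top2a lies at chr11:99024140-99024439, Kif23 at chr9:61946750-61947049, Pcna at chr2:132253131-132253430 and Mcm7 at chr5:138171834-138172133.
Top2a: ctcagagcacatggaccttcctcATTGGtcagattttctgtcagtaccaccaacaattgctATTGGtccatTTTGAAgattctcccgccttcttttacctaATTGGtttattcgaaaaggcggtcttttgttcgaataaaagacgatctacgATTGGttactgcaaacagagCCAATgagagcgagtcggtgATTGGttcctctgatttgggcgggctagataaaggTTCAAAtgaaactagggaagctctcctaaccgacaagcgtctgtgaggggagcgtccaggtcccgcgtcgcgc
Kif23: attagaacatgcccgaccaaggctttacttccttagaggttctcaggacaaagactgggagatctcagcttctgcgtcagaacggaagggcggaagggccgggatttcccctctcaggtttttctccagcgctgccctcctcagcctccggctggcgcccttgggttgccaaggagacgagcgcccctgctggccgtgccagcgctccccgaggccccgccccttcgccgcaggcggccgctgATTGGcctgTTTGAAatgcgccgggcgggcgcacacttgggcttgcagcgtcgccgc
Pcna: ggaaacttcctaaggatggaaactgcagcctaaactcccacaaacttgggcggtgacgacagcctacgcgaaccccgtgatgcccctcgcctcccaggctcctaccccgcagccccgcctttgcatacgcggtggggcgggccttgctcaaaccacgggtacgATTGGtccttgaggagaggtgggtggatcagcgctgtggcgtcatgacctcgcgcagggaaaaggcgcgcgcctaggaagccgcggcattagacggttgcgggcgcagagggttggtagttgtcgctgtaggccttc
Mcm7: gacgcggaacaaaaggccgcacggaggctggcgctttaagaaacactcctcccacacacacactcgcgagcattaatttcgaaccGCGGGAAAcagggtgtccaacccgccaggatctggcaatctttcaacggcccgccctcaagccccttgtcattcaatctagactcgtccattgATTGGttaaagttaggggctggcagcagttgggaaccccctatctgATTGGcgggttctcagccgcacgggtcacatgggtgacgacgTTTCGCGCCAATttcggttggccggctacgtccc
The mitotic genes Top2a and Kif23 held 2 and 1 CHR matches, and the replication genes Pcna and Mcm7 held 0, whereas Mcm7 held 2 E2F matches, of which the downstream one shares a base with a CCAAT box. Of the 39 members, 32 had an entry in the promoter table. The CHR letters were found in 15 of these 32 and in 17.9% of all 32851 promoters of the same length, the CCAAT letters in 25 of 32 and in 37.4%, and the E2F letters in 8 of 32 and in 5.17%. A match describes these letters only, and not whether a factor was bound.

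In skin all 39 members passed the level rule (at least 1 CPM in 3 libraries of the tissue) and all were tested. Levels between genes are compared in TPM, which corrects for length, and CPM scaled by the trimmed mean of M-values (TMM) is used within a gene. The highest mean level over the 10 skin libraries was that of Pcna (100.9 ± 22.6 TPM, SD, n = 10), which encodes the sliding clamp of the replication fork. It was followed by Top2a (92.7 ± 36.6 TPM), Mcm7 (78.6 ± 20.4), Kif23 (73.3 ± 22.6), Cdk1 (72.4 ± 24.4) and Mki67 (66.9 ± 31.3), neighbours that lie within each other's SD. The lowest were Bub1 (9.15 ± 5.26 TPM), Cdc6 (5.90 ± 2.24) and Ccne1 (5.59 ± 2.39). Kif23 owed part of its place to short non-coding transcripts, since a processed transcript of 632 bases held 34.0% of its TPM and protein-coding transcripts held 29.1% of its counts.

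**Figure D1:**
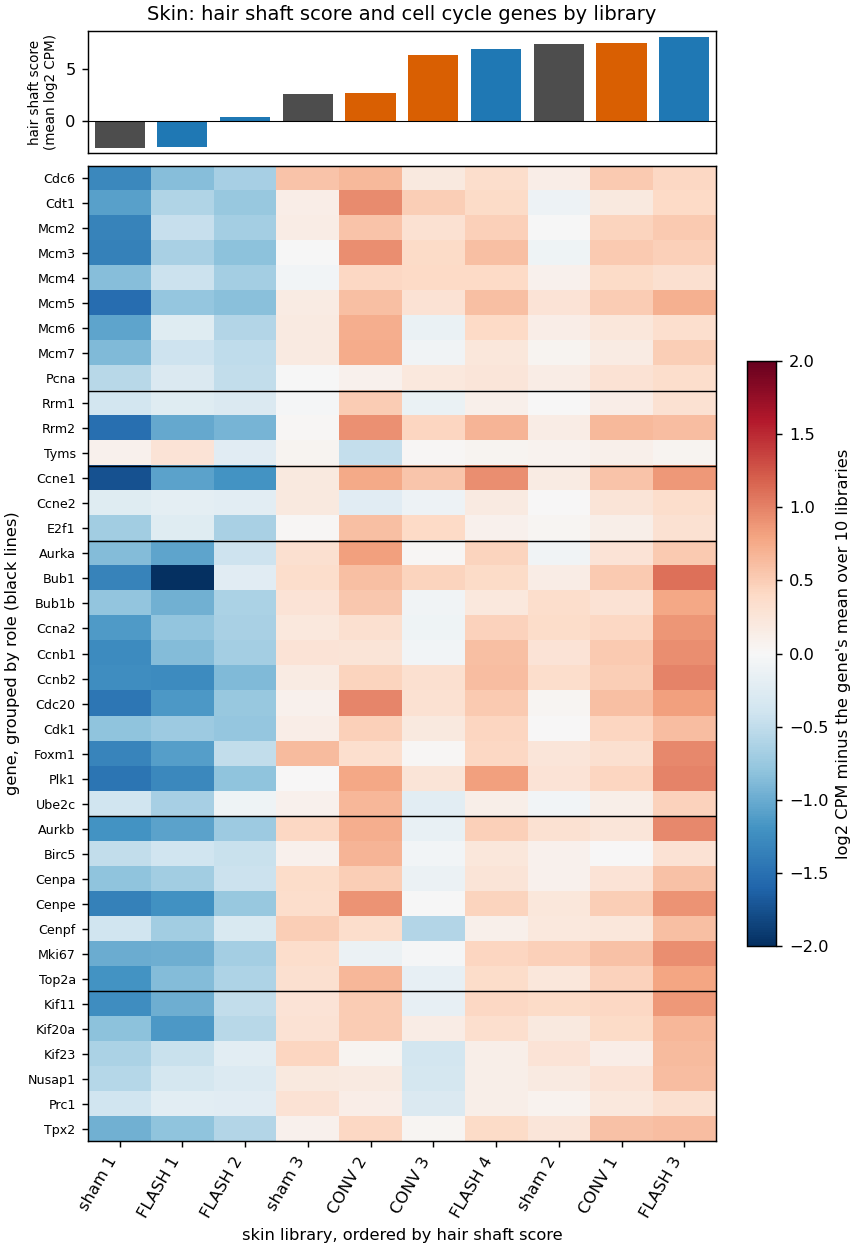
Cell cycle genes in the 10 skin libraries, ordered from left to right by hair shaft score (bars, mean log2 CPM of 19 hair shaft genes; grey sham, blue FLASH, orange CONV). Colours give each gene's log2 CPM minus its mean over the 10 libraries. Sham 1, FLASH 1 and FLASH 2, at the left, are blue for nearly all genes, and FLASH 3, at the right, is the highest for 23 of 39 genes.

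In each list of values below, libraries stand in the order of their replicate number. Among the chromosome genes, Mki67, the Ki-67 proliferation marker (chr7:135689784-135716361), was at 109.8, 304 and 279 CPM in the sham libraries, 110.4, 136, 416 and 294 in the FLASH libraries and 327, 202 and 214 in the CONV libraries. Top2a, the topoisomerase that untangles sister chromosomes, was at 55.9, 151 and 161 CPM in the sham libraries, 70.7, 84.2, 223 and 165 in the FLASH libraries and 177, 203 and 115 in the CONV libraries. Both were lowest in sham 1, FLASH 1 and FLASH 2 and highest in FLASH 3, so that sham and FLASH each held low and high libraries, and the FLASH range enclosed the CONV values of both genes. Of the mitotic control genes, Cdk1, the mitotic kinase, was at 13.4, 23.7 and 25.8 CPM in the sham libraries, 14.3, 13.8, 36.2 and 31.8 in the FLASH libraries and 31.8, 32.6 and 27.0 in the CONV libraries. Ccna2, cyclin A2 of S phase and mitosis, was at 19.6, 55.0 and 49.6 CPM in the sham libraries, 24.8, 27.3, 78.5 and 58.9 in the FLASH libraries and 57.1, 53.4 and 40.2 in the CONV libraries. The same 3 libraries were again the lowest. For Cdk1 the CONV libraries lay above the sham libraries and overlapped FLASH, and for Ccna2 all groups overlapped.

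Of the spindle genes, Kif23, a kinesin of the central spindle, was at 22.3, 42.0 and 46.5 CPM in the sham libraries, 25.4, 29.7, 53.7 and 37.5 in the FLASH libraries and 38.0, 36.1 and 26.9 in the CONV libraries. Prc1, which bundles the microtubules of that spindle, was at 46.0, 64.1 and 74.4 CPM in the sham libraries, 52.4, 52.0, 75.8 and 66.1 in the FLASH libraries and 70.1, 66.3 and 49.7 in the CONV libraries. Their ranges were narrower, with 2.40-fold and 1.65-fold between the highest and the lowest library, and CONV 3 joined the low libraries for both. The replication genes with the highest TPM were Pcna, at 37.8, 61.5 and 55.0 CPM in the sham libraries, 45.2, 39.4, 70.8 and 65.8 in the FLASH libraries and 67.9, 58.9 and 64.5 in the CONV libraries, and Mcm7, a subunit of the replicative helicase, at 29.5, 56.5 and 61.9 CPM in the sham libraries, 41.0, 38.3, 76.5 and 63.7 in the FLASH libraries and 61.1, 91.2 and 52.1 in the CONV libraries. Mcm7 was highest in CONV 2 and Pcna in FLASH 3, with the 3 low libraries as before.

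In nucleotide supply, Rrm1, the large subunit of ribonucleotide reductase, was at 79.7, 103 and 101 CPM in the sham libraries, 86.8, 84.2, 127 and 109.8 in the FLASH libraries and 113, 146 and 93.6 in the CONV libraries. Tyms, thymidylate synthase, was at 64.3, 63.8 and 62.6 CPM in the sham libraries, 73.4, 51.7, 62.5 and 62.5 in the FLASH libraries and 64.6, 43.2 and 61.1 in the CONV libraries. Tyms did not share the pattern, since its lowest library was CONV 2 and its highest FLASH 1. At the G1/S transition, Ccne2 (cyclin E2) was at 12.9, 15.3 and 17.4 CPM in the sham libraries, 13.3, 13.2, 19.6 and 17.2 in the FLASH libraries and 18.2, 13.0 and 14.2 in the CONV libraries, and E2f1 at 7.62, 12.7 and 12.5 CPM in the sham libraries, 10.4, 7.91, 15.2 and 13.0 in the FLASH libraries and 13.4, 18.8 and 16.3 in the CONV libraries. Ccne2 had the smallest range of all members (1.52-fold from lowest to highest library) and Bub1, a spindle checkpoint kinase, the widest (8.56-fold). The other 26 members ran from 0.976 CPM (Ccne1 in sham 1) to 88.6 CPM (Cenpf in FLASH 3).

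The skin libraries thus fell in a common order. Sham 1, FLASH 1 and FLASH 2 were the 3 lowest of 10 libraries for 32 of 39 members, the exceptions being Cenpf, Kif23, Ube2c, Nusap1, Prc1, Ccne2 and Tyms. Sham 1 was the lowest library for 31 members, FLASH 3 the highest for 23 and CONV 2 the highest for 14. Summed over the members, the level was 820 CPM in sham 1, 946 in FLASH 1 and 1006 in FLASH 2, and 1435 to 2264 CPM in the other 7, without overlap. This split put 1 of 3 sham, 2 of 4 FLASH and 0 of 3 CONV libraries in the low set. In bulk tissue, fewer dividing cells and less RNA per cell cannot be told apart. Sham 1 and FLASH 2 of the low set were also the skin libraries rich in fast muscle fibre genes (31708 and 31494 CPM), and FLASH 1 was not (1943 CPM). The part of muscle tissue in the low levels was not tested.

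The growth phase of the hair was noted from a hair shaft score, the mean log2 CPM of 19 keratin and keratin-associated protein genes of the hair shaft, which follicles make during growth. It was -2.49 in sham 1, -2.46 in FLASH 1 and 0.43 in FLASH 2, the 3 libraries low in cell cycle genes. It was 2.59 in sham 3 and 2.72 in CONV 2, and 6.27 in CONV 3, 6.83 in FLASH 4, 7.34 in sham 2, 7.43 in CONV 1 and 8.03 in FLASH 3. In sum the hair shaft genes ran from 9.95 CPM in sham 1, with 8 of 19 genes at 0, to 7100 CPM in FLASH 3. The order of the hair score and that of the cell cycle genes differed most in CONV 2, with a summed member level of 1928 CPM, the second highest, at a hair score in the lower middle. In that library 8 basal keratinocyte genes summed to 29139 CPM, against 6536 to 10806 in the other 9. Krt14 alone gave 18398 of this sum, and the mean log2 CPM of the 8 genes was 10.34, against 9.12 to 10.07. Krt6a, of wounded epidermis, was also highest there (6046 CPM, against 42.7 to 2722 CPM). Sham 3, with a hair score of 2.59, had 1702 CPM of member genes. The 8 genes of the dividing hair matrix summed to 66.2 CPM in sham 1, 83.1 in FLASH 1, 143 in FLASH 2 and 135 in CONV 2, to 272 in CONV 3 and 395 in sham 3, and to 526 to 1033 CPM in the other 4. CONV 2 thus lay with the low libraries in hair matrix genes and sham 3 above them. The part of these cell populations in the member levels was not tested.

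The slope of each gene over the hair shaft score was tested with the group as a covariate (edgeR quasi-likelihood test, Benjamini-Hochberg adjustment over all 20026 genes tested in skin, threshold 0.05). All 39 members had a positive slope, with a median of 0.11 log2 units per unit of score against -0.0081 over all genes, and 7 of 39 passed, all higher, where 3.36% of all genes tested passed in that direction and 3.94% in either. Mki67 had the smallest p, at 0.16 ± 0.02 (SE) log2 units per unit of score (adjusted p = 0.00539). The others were the mitotic cyclins Ccnb2 (0.18 ± 0.03, adjusted p = 0.0163), Ccnb1 (0.16 ± 0.03, 0.0280) and Ccna2 (0.14 ± 0.03, 0.0326), the spindle assembly factor Tpx2 (0.12 ± 0.02, 0.0301), Pcna (0.07 ± 0.01, 0.0381) and the mitotic kinase Plk1 (0.18 ± 0.04, 0.0427).

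By role, 4 of 11 mitotic control genes, 1 of 7 chromosome genes, 1 of 6 spindle genes and 1 of 9 replication genes passed, and none of the 3 nucleotide supply or 3 G1/S genes, whose smallest adjusted p were 0.0599 (Rrm2) and 0.0608 (Ccne1). Tyms had the flattest slope (0.0046 ± 0.02). The count rested on single libraries. It was 26 without CONV 2, 13 without CONV 3, 9 without sham 3, 3 without CONV 1, 2 without FLASH 1, FLASH 4 or sham 2, and 1, Mki67, without FLASH 2, FLASH 3 or sham 1. It was 0 without the 2 muscle-rich libraries, both low in hair score, where Mki67 kept a slope of 0.15 (adjusted p = 0.0945), and 1 without the 2 libraries of disagreeing name. DESeq2 called 28 members higher, and 1643 of all 20026 genes. For 26 members without CONV 2 the share of all genes called higher was 5.13%, and for 13 without CONV 3 it was 4.20%. That share was 3.25% without sham 3 and 2.91% without CONV 1. On leaving out 1 of the other libraries, with 2 or 1 members called, it was 1.65% to 2.41%. Without the muscle-rich libraries it was 1.40%, and without those of disagreeing name 2.10%. The part of muscle tissue in these slopes was not tested.

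**Figure D2:**
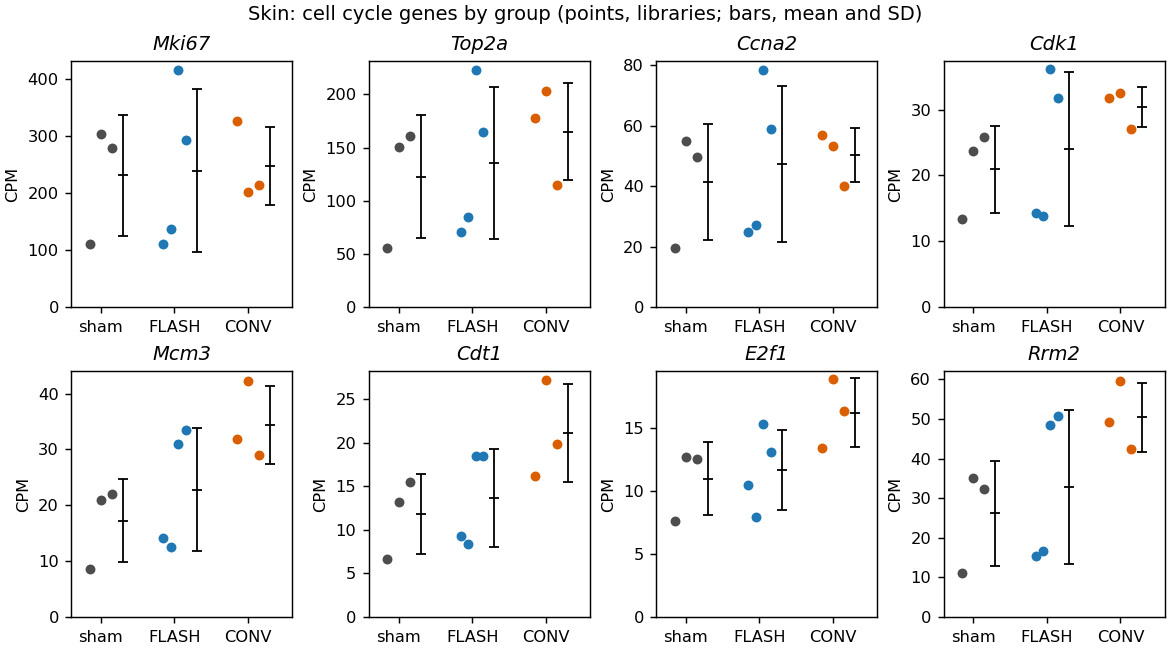
CPM (TMM-scaled, linear axes from 0) of 8 members in skin by group, with 1 point for each library and the mean and SD beside them. The sham and FLASH groups each hold both low and high libraries, and the 3 CONV libraries lie above the lowest sham and FLASH libraries of every gene shown.

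In conventionally irradiated skin no member passed the test. Against the 7 sham and FLASH libraries, 35 of 39 members had a higher fitted level in CONV, with a median log2 difference of 0.35 (0.0047 over all genes tested). No member passed in either direction with edgeR, where 1.65% of all 20026 genes passed, or with DESeq2, where 10.3% did. With edgeR 1 member (E2f1) had an unadjusted p under 0.05. All 9 replication genes were higher (median 0.50), and 5 of 6 spindle genes (0.12). All 11 mitotic control genes were higher (median 0.36), as were 6 of 7 chromosome genes (0.25), 2 of 3 nucleotide supply genes (0.25) and 2 of 3 G1/S genes (0.51).

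The 5 genes with the smallest p were E2f1, the replication genes Cdt1, Mcm3 and Mcm4, and the nucleotide supply gene Rrm2. E2f1, the transcription factor of the G1/S switch, averaged 16.2 ± 2.73 CPM in CONV (SD, n = 3) and 11.3 ± 2.82 in the other 7, a log2 difference of 0.51 ± 0.23 (SE, adjusted p = 0.209). Cdt1, which loads the MCM helicase, was at 6.68, 13.2 and 15.5 CPM in the sham libraries, 9.26, 8.32, 18.5 and 18.5 in the FLASH libraries and 16.1, 27.2 and 19.9 in the CONV libraries, a difference of 0.71 ± 0.33 (adjusted p = 0.219). A retained-intron transcript of Cdt1 carried 82.5% of its skin counts. Mcm3, a helicase subunit, was at 8.64, 20.9 and 22.0 CPM in the sham libraries, 14.1, 12.6, 30.9 and 33.5 in the FLASH libraries and 31.8, 42.3 and 29.0 in the CONV libraries, with 0.75 ± 0.37 (adjusted p = 0.249).

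Mcm4, of the same helicase, was at 17.1, 32.8 and 29.7 CPM in the sham libraries, 22.7, 19.1, 38.5 and 40.6 in the FLASH libraries and 40.0, 41.0 and 40.5 in the CONV libraries. Its 3 CONV values were nearly equal, and its difference was 0.50 ± 0.26 (adjusted p = 0.273). Rrm2, the S-phase subunit of ribonucleotide reductase, was at 11.0, 35.2 and 32.2 CPM in the sham libraries, 15.5, 16.5, 48.4 and 50.7 in the FLASH libraries and 49.3, 59.6 and 42.3 in the CONV libraries, a difference of 0.75 ± 0.44 (adjusted p = 0.320). In all 5 genes the CONV libraries lay above the 3 sham libraries and overlapped the FLASH range. The proliferation marker Mki67 was at 247 ± 69.2 CPM in CONV and 236 ± 118 CPM in the other 7. Its difference of 0.07 had an approximate 95% interval of -0.77 to 0.91 on the log2 scale. The interval is the difference ± 1.96 SE, a normal approximation that is too narrow for so few libraries.

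Against sham alone, which shares the CONV libraries with the comparison above, 35 of 39 members were higher in CONV (median 0.43), 0 passed and 0 of 20026 genes passed (0%). DESeq2 also called 0 members, although it called 8.14% of all genes. With edgeR 0 members had an unadjusted p under 0.05. Every CONV library lay above every sham library for 11 of 39 members (Bub1, Ccne1, Cdc20, Cdk1, Cdt1, E2f1, Mcm2, Mcm3, Mcm4, Mcm5 and Rrm2), where 13.6% of all genes did so, and below for 0 members (14.3% of all genes). Against the other 7 libraries 0 members lay wholly above (3.85% of all genes) or below (2.62%). Mcm3 had the largest difference, 1.00 ± 0.46 (adjusted p = 0.261). The group medians depended on the low libraries: without sham 1 the median against sham was 0.15, and without sham 1 and FLASH 2 it was 0.10 against sham and 0.10 against the other 7. With that hair score added to the fit the medians were 0.23 and 0.20, and Mki67 stood at -0.21 against the other 7.

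Marker lists of other cell types had the following summed levels in these groups. The 10 wound keratinocyte genes summed to 6485 to 22941 CPM in CONV, 201 to 560 in sham and 292 to 7822 in FLASH, of which FLASH 4 was the highest. The 9 neutrophil genes summed to 219 to 806 CPM in CONV, 30.7 to 39.7 in sham and 25.0 to 114 in FLASH. Both of these lists hold S100a8 and S100a9, so their sums are not independent. S100a8 alone gave 54.6, 360 and 198 CPM of the neutrophil sums of 219, 695 and 806 CPM in CONV 1, 2 and 3. The 9 macrophage genes summed to 526 to 1293 CPM in CONV, against 239 to 488 in sham and 221 to 624 in FLASH. The 7 fibroblast genes summed to 10189 to 29951 CPM in CONV, above 5910.3 to 6799 in sham and 6660 to 8469 in FLASH. The 7 endothelial genes summed to 326 to 846 CPM in CONV, 123 to 393 in sham and 206.1 to 339 in FLASH. The CONV ranges of the neutrophil and fibroblast lists lay above both other groups, and those of the other lists overlapped at least 1 group. Hair shaft genes summed to 171 to 4389 CPM in CONV, within the ranges of 9.95 to 4410 in sham and 10.3 to 7100 in FLASH. Their part in the cell cycle values was not tested.

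FLASH skin lay between the others on the median. FLASH minus CONV was lower for 35 of 39 members (median -0.28), with 0 passing and 0% of all genes, and the smallest adjusted p among members was 0.474 (E2f1, -0.47 ± 0.27). FLASH minus sham was higher for 34 of 39 members (median 0.15), again with 0 passing and 0% of all genes, and every member had an adjusted p of 1.00. DESeq2 called 0 members in both, and 2.28% of all genes in FLASH minus CONV and 0.0200% in FLASH minus sham. With edgeR 0 members had an unadjusted p under 0.05. These comparisons share libraries, and 1 FLASH and 1 sham library carried the name of the other group. With files assigned by library name, the median of CONV minus sham was 0.74, and 0 members passed.

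A wider list of 66 further cell cycle genes was tested in the same fits. In CONV against the other 7 skin libraries 55 of 66 were higher (median 0.24) and 0 passed, where 1.65% of all genes tested did. The smallest p were those of Fen1, the flap endonuclease of lagging strand synthesis (0.82 ± 0.37, adjusted p = 0.213), the licensing inhibitor Gmnn (0.95 ± 0.46, 0.243), the E2F repressor E2f7 (0.36 ± 0.20, 0.290), the spindle protein Tacc3 (0.59 ± 0.34, 0.312) and the primase subunit Prim1 (-0.33 ± 0.19, 0.315). Over the hair shaft score 64 of 66 had a positive slope (median 0.09) and 7 passed, all higher, where 3.36% of all genes passed in that direction. They were led by Cks2, a CDK1 subunit (0.15 ± 0.03, adjusted p = 0.0200), and the mitotic transcription factor Mybl2 (0.21 ± 0.04, 0.0277). How these 7 calls fared on leaving out libraries is not given here. Of 12 genes of the D cyclins, G1 kinases, RB family and other E2Fs, which are not restricted to dividing cells, 7 were higher in CONV skin and 0 passed. They held opposite values for 2 D cyclins, Ccnd3 (0.70 ± 0.20, adjusted p = 0.0913) and Ccnd2 (-0.71 ± 0.22, 0.107). E2f3, an activating E2F, was the 1 of these 12 to pass over the hair score (0.13 ± 0.02, 0.0169).

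**Figure D3:**
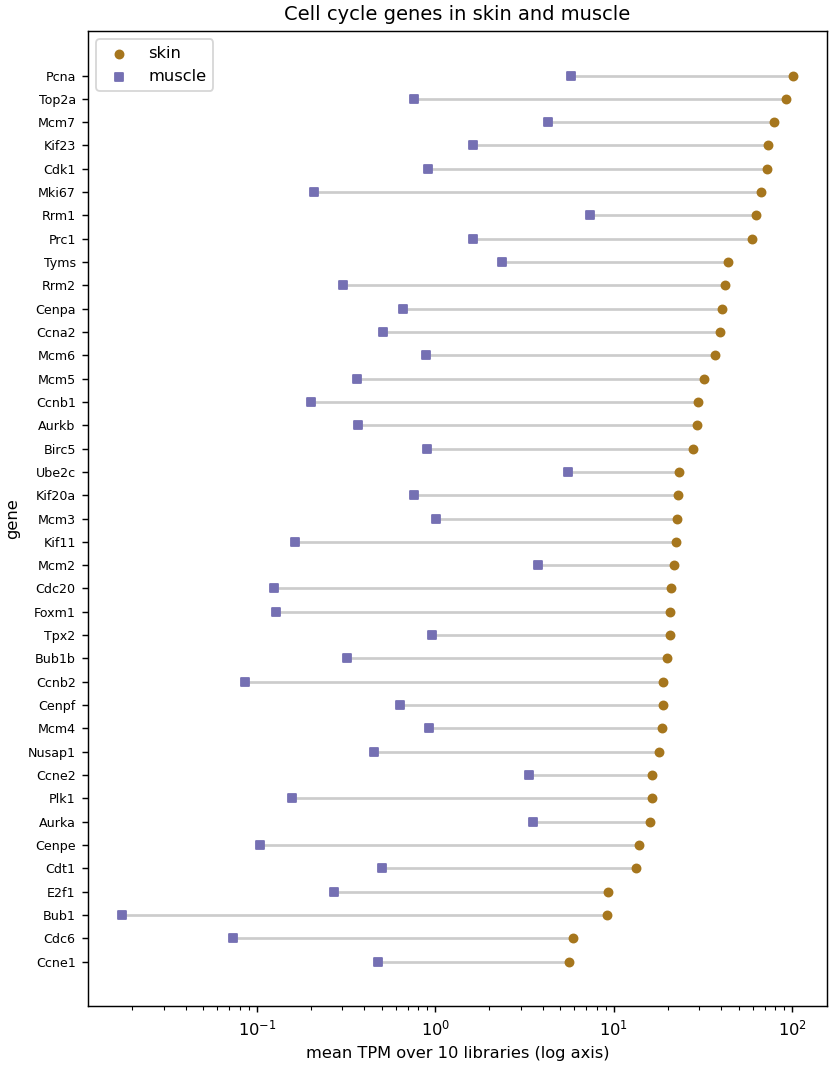
Mean TPM of the 39 genes over the 10 libraries of skin (brown circles) and of muscle (purple squares), on a log axis, ordered by the skin level. All genes are higher in skin, by 4.19-fold (Ube2c) to 523-fold (Bub1), with a median of 41.7-fold.

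In muscle every member had a lower mean level than in skin, and 9 of 39 had at least 1 CPM in all 10 libraries. The ratio of the mean skin TPM to the mean muscle TPM had a median of 41.7 and ran from 4.19 (Ube2c) to 523 (Bub1), although the labels put all skin in batch 1 and all muscle in batch 2, so that tissue and batch cannot be told apart. Of 39 members, 20 had at least 1 CPM in 3 muscle libraries, and 21 entered the test. Cdt1 was the member nearest the limit inside it, with 1.07 CPM before TMM scaling in the lowest of its 3 highest libraries, and Cenpa the nearest outside, with 0.922. The 19 below it included the cyclins Ccna2, Ccnb1 and Ccnb2, Cdk1, Plk1, Aurkb, Foxm1, Cdc20 and Cdc6. Over the 10 muscle libraries together, Bub1 had 2 counts, Cdc20 had 9 and Ccnb2 had 10, and 9 members had 0 counts in at least 1 library, where a count of 0 allows up to 0.234 to 0.307 CPM (3 counts). In the same libraries Rrm1 had 1967 counts and Ube2c 804. Mki67 had 127 counts, or 0.409 to 1.80 CPM.

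The highest muscle levels were those of Rrm1 (7.38 TPM), Pcna (5.77 TPM) and Ube2c (5.56 TPM). Rrm1 was at 14.4, 19.6 and 16.4 CPM in the sham libraries, 15.1, 16.0, 17.6 and 20.2 in the FLASH libraries and 19.2, 17.1 and 16.8 in the CONV libraries. Pcna was at 4.78, 5.34 and 5.74 CPM in the sham libraries, 6.33, 5.93, 4.81 and 5.81 in the FLASH libraries and 3.69, 6.44 and 5.31 in the CONV libraries, and Mcm7 at 4.78, 3.73 and 3.77 CPM in the sham libraries, 4.06, 5.14, 4.30 and 3.63 in the FLASH libraries and 5.03, 4.19 and 3.19 in the CONV libraries. These 3 genes varied by at most 1.75-fold across the libraries, and their groups overlapped. Tyms was at 6.97, 5.85 and 3.68 CPM in the sham libraries, 6.17, 4.88, 2.86 and 7.26 in the FLASH libraries and 4.31, 5.39 and 4.66 in the CONV libraries. Ccne2 was at 3.54, 2.37 and 2.33 CPM in the sham libraries, 4.14, 3.31, 2.46 and 2.18 in the FLASH libraries and 2.88, 2.74 and 2.94 in the CONV libraries, and Ccne1, which was not tested, at 0.191, 0.170 and 0.0897 CPM in the sham libraries, 0.234, 0.174, 0.205 and 0.0907 in the FLASH libraries and 0.270, 0.322 and 0.0818 in the CONV libraries. Tyms was lowest in FLASH 3 and sham 3, and Ccne1 lay near the level of 3 counts throughout.

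Among the mitotic genes, Ube2c, the ubiquitin-conjugating enzyme of the anaphase-promoting complex (chr2:164769898-164778822), was at 9.55, 5.34 and 5.65 CPM in the sham libraries, 5.86, 5.67, 9.52 and 9.07 in the FLASH libraries and 8.45, 6.36 and 5.89 in the CONV libraries. Birc5 (survivin, of the chromosomal passenger complex) was at 2.20, 2.12 and 2.15 CPM in the sham libraries, 1.87, 1.74, 2.25 and 2.54 in the FLASH libraries and 1.98, 1.45 and 2.53 in the CONV libraries, and Kif23 at 0.764, 0.848 and 0.628 CPM in the sham libraries, 1.33, 0.262, 0.307 and 1.18 in the FLASH libraries and 0.360, 0.483 and 1.47 in the CONV libraries. The groups overlapped for all 3. Aurka, the Aurora A kinase of the spindle poles (chr2:172356190-172370535), was at 3.73, 2.37 and 3.50 CPM in the sham libraries, 2.03, 4.79, 2.86 and 2.00 in the FLASH libraries and 1.53, 0.885 and 1.88 in the CONV libraries. All 3 CONV libraries lay below all 7 others. Tpx2, the activator of Aurora A, was at 1.82, 1.36 and 4.48 CPM in the sham libraries, 2.34, 2.53, 4.81 and 2.99 in the FLASH libraries and 1.71, 0.805 and 1.06 in the CONV libraries. CONV was below all FLASH libraries and overlapped sham, since CONV 1 lay above sham 2.

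**Figure D4:**
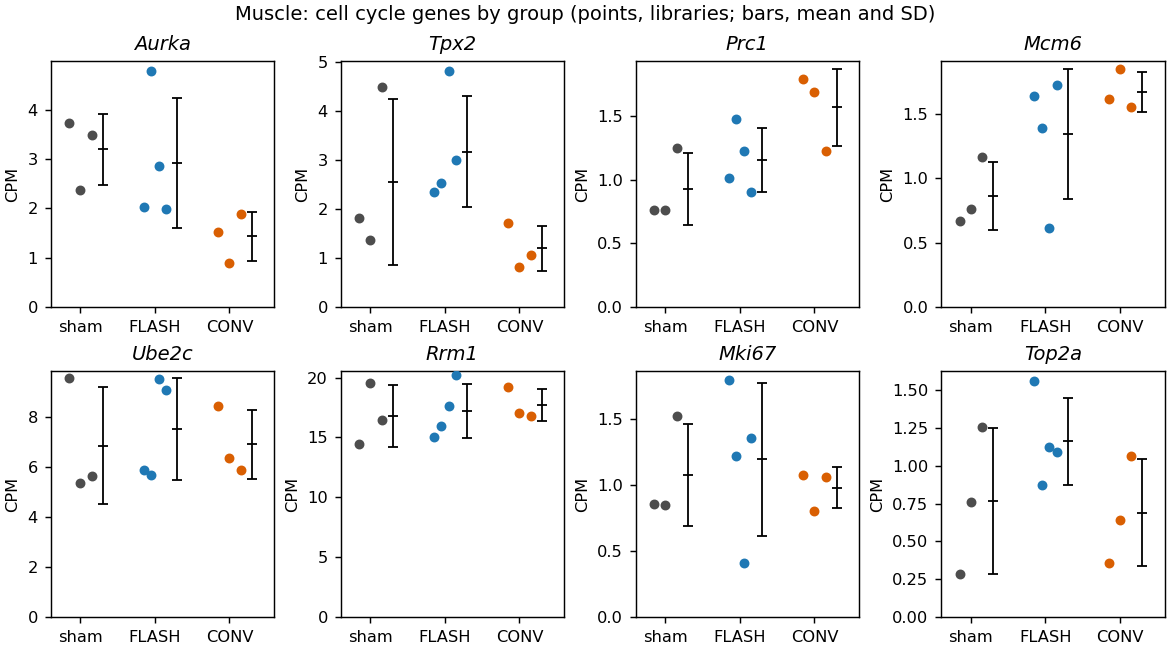
CPM (TMM-scaled, linear axes from 0) of 8 members in muscle by group, with 1 point for each library and the mean and SD beside them. For Aurka the 3 CONV libraries, at 0.885 to 1.88 CPM, lie below the other 7, at 2.00 to 4.79 CPM, and for most other genes the groups overlap.

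In CONV against the other 7 muscle libraries, 10 of 21 tested members were higher and 11 lower (median -0.02), 0 passed, and 0.0612% of all 13080 genes passed. DESeq2 also called 0 members, where 1.15% of all genes passed. With edgeR 2 members had an unadjusted p under 0.05. These were Aurka, at 1.43 ± 0.50 CPM in CONV (SD, n = 3) against 3.04 ± 1.03 (n = 7), a log2 difference of -1.08 ± 0.32 (SE, adjusted p = 0.191), and Tpx2, at 1.19 ± 0.47 against 2.90 ± 1.30 CPM, -1.28 ± 0.40 (adjusted p = 0.224). Aurka was 1 of 21 members, and 2.47% of all genes, whose CONV libraries all lay below the rest. Prc1, Mcm6 and Top2a complete the 5 of smallest p. Prc1 was at 0.764, 0.763 and 1.26 CPM in the sham libraries, 1.02, 1.48, 1.23 and 0.907 in the FLASH libraries and 1.80, 1.69 and 1.23 in the CONV libraries, 0.56 ± 0.28 (adjusted p = 0.436), and Mcm6, a helicase subunit, at 0.669, 0.763 and 1.17 CPM in the sham libraries, 1.64, 1.39, 0.614 and 1.72 in the FLASH libraries and 1.62, 1.85 and 1.55 in the CONV libraries, 0.54 ± 0.32 (adjusted p = 0.524). Top2a was at 0.287, 0.763 and 1.26 CPM in the sham libraries, 1.56, 0.872, 1.13 and 1.09 in the FLASH libraries and 0.360, 0.644 and 1.06 in the CONV libraries, -0.52 ± 0.44 (adjusted p = 0.676). Prc1 and Mcm6 in CONV overlapped FLASH and Top2a overlapped all groups.

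Against sham, CONV had 0 passing members (median 0.01), where 0.00765% of all genes passed, with Aurka at -1.15 ± 0.38 (adjusted p = 0.373) and Mcm6 at 0.94 ± 0.38 (0.436). DESeq2 called 0 members and 0.375% of all genes. With edgeR 4 members had an unadjusted p under 0.05 (Aurka, Mcm6, Tpx2 and Prc1). All CONV libraries lay above all sham libraries for Mcm6 alone (7.66% of all genes) and below them for Aurka alone (7.76%). FLASH minus CONV likewise had 0 passing members with either tool (median 0.05, 2 at an unadjusted p under 0.05). Of all genes 0.00765% passed with edgeR and 0.313% with DESeq2. In edgeR Tpx2 stood at 1.40 ± 0.44 (adjusted p = 0.428) and Aurka at 1.02 ± 0.36 (0.467). These were the 2 of 21 members whose FLASH libraries all lay above all CONV libraries, as did 4.48% of all genes. FLASH minus sham had 0 with either tool and 0 at an unadjusted p under 0.05 (median 0.12, 0% of all genes with edgeR and 0.00765% with DESeq2). Since 5 of the 7 muscle sham and FLASH records held a file named for another library, the comparison with sham was repeated with files assigned by library name. Aurka then passed as the only member, at -1.41 ± 0.32 (adjusted p = 0.0449), where 1.25% of all genes passed under that assignment. Its difference from the other 7, which does not depend on the naming, ran from -1.34 to -0.83 on leaving out each library in turn, with adjusted p of 0.132 to 0.567. Without FLASH 4 and CONV 3, the libraries that held hair keratins, it was -1.42 (adjusted p = 0.254).

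In the wider list, 31 of 66 genes were tested in muscle, 21 of them higher in CONV against the other 7 (median 0.27). Of these genes 0 passed, where 0.0612% of all genes did. The smallest p were those of the DNA polymerase epsilon subunit Pole (0.49 ± 0.17, adjusted p = 0.253), Fen1 (0.75 ± 0.28, 0.309), the securin Pttg1 (0.27 ± 0.11, 0.349), the DNA polymerase delta subunit Pold1 (0.47 ± 0.23, 0.429) and E2f7 (0.38 ± 0.21, 0.487). Of the G1 and RB family list, 0 of 11 passed. The satellite and myogenic genes summed to 21.1 to 55.6 CPM in CONV muscle, above 12.3 to 17.3 in sham and 13.7 to 15.7 in FLASH. Pax7, 1 of the 6 genes of that list, was not higher in CONV. Its levels were 1.71, 1.45 and 0.654 CPM in CONV, 1.82, 2.37 and 1.52 in sham and 2.03, 1.39, 1.64 and 1.18 in FLASH. The higher sum in CONV thus came from other genes of that list, whose levels are not given singly here. The 9 macrophage genes summed to 62.3 to 83.7 CPM in CONV, 26.4 to 77.2 in sham and 26.5 to 81.5 in FLASH. Their part in the cell cycle values was not tested.

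Whether the CONV difference itself differed between the tissues was tested by an interaction over all 20 libraries. That fit has a single spread per gene for both tissues. Its common biological coefficient of variation, the spread between libraries, was 0.347, against 0.414 in the skin fit and 0.168 in the muscle fit. Muscle differences were thus judged with a larger spread than in their own fit. Of 39 members 0 passed with edgeR, where 0.109% of 19199 genes passed, or with DESeq2, where 2.44% did. The difference was higher in skin for 16 of the 21 members also tested in muscle (median 0.35), and the other 18, which entered through their skin level, are not counted. Tpx2 (1.70 ± 0.57, adjusted p = 0.162) and Aurka (1.55 ± 0.53, 0.163) had the smallest p and were the 2 members with an unadjusted p under 0.05. In skin their differences were 0.40 ± 0.34 and 0.45 ± 0.35, and in muscle -1.28 ± 0.40 and -1.08 ± 0.32.

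**Figure D5:**
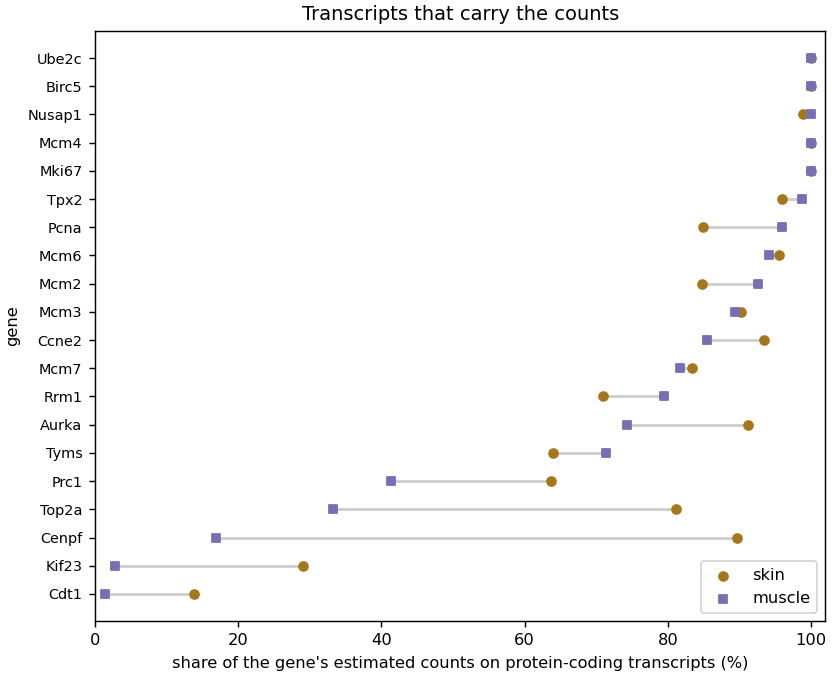
Share of each gene's estimated counts, summed over 10 libraries, that was assigned to protein-coding transcripts, in skin (brown circles) and muscle (purple squares), for the 20 members that passed the level rule in muscle. Cenpf and Top2a lie far lower in muscle than in skin, and Cdt1 and Kif23 are low in both.

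The counts of several members lay on different transcripts in the 2 tissues, a comparison added after the values were seen. Protein-coding transcripts carried a median of 87.4% of the counts of the 20 members in muscle and 89.9% in skin, but under 50% for 5 members in muscle and 2 in skin. Cenpf, a kinetochore protein of late S phase to mitosis, had 83.1% of its muscle counts on the retained-intron transcript Cenpf-206 (71.1% to 100% per library), against 4.23% to 11.6% in skin. Top2a had 33.2% of its muscle counts on its protein-coding transcript and 81.2% of those in skin. For Aurka the retained-intron transcript Aurka-205 held 14.4% to 36.2% in muscle and 0.606% to 7.70% in skin. Cdt1 had 1.33% of its muscle counts and 13.8% of its skin counts on a coding transcript. Muscle values of these genes rest on 104 (Top2a) to 288 (Aurka) counts over 10 libraries.

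Ube2c differed by coding transcript instead. The transcript Ube2c-201, of 2191 bases, held 77.4% to 94.6% of its counts in the 10 muscle libraries, where Ube2c-202, of 967 bases, held the rest. In skin, Ube2c-201 held 40.8% in sham 1 (Wilson 95% interval 34.5% to 47.7%) and 41.1% in FLASH 2 (35.2% to 47.1%). It held 2.24% and 2.99% in sham 2 and 3, 5.11%, 2.07% and 1.26% in FLASH 1, 3 and 4, and 8.77%, 5.19% and 2.14% in CONV 1, 2 and 3, all with an upper bound of 12.7% or less. Sham 1 and FLASH 2 are the skin libraries rich in muscle fibre genes. Ube2c was also the member with the smallest ratio of skin to muscle level, and 1 of the 7 whose lowest skin libraries were not sham 1, FLASH 1 and FLASH 2. Whether muscle tissue in sham 1 and FLASH 2 had a part in these values was not tested. Shares between transcripts are kallisto estimates, and the intervals cover counting error only.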

How the data were processed

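Skin and muscle RNA was depleted of ribosomal RNA and made into stranded libraries, as the labels' protocols state. The deposited files hold an estimated count and a TPM value for each of 116116 transcripts, which the authors made with kallisto, version 0.5.0, and the genome build mm10, per the submitters' processing notes. The annotation release, and whether the read strand was used, are not given in the sources used here. Estimated counts were not normalized. They were summed to 35579 genes by transcript identifier without its version in GENCODE M21 (GRCm38), which matched 114322 transcripts (98.5%), and were then rounded. Unmatched transcripts held 0.873% to 1.85% of a library. The deposited TPM values were summed likewise.

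Genes were tested with edgeR 4.0.16 (R 4.3.3), in each tissue separately except for the interaction, which was fitted over both tissues together. The steps were TMM scaling, filterByExpr by group, the robust quasi-likelihood test and Benjamini-Hochberg adjustment over all genes tested, with 0.05 as the threshold. SE is the log2 difference divided by the root of the F statistic. CPM values are TMM-scaled, and the level rule and its limit use CPM before scaling. The hair shaft score used a prior count of 2. The fits were also run on simulated counts, whose spread in skin was set below that of the data, so that run cannot vouch for the skin tests. The members, gene lists and tests were chosen with earlier results of these data known. For each tissue the named genes are the 2 of each role with the highest mean TPM and the 5 with the smallest p in CONV against the other 7, and others are named where a count or an extreme calls for it, after their values were seen. Alternatives were RLE scaling, other filters, DESeq2 1.42.0, leaving out libraries, the replicate number as a block, files assigned by library name and the hair shaft score as a covariate. The block fits left out FLASH 4 of each tissue. Leaving out the 2 muscle-rich skin libraries, or the 2 muscle libraries with hair keratins, was chosen after seeing the data.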

Additional observations from a re-analysis of the deposited data

How the results depend on the processing

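The 8 comparisons between groups and their difference between tissues had 0 members past the threshold under every alternative run but 1: Aurka, in CONV minus sham in muscle with files assigned by library name (1 member, and 1.25% of all genes). Smallest adjusted p over the alternatives were 0.0834 to 0.425 in CONV against the other 7 skin libraries and 0.0886 to 0.752 in muscle. Members called over the hair shaft score, 7 in the report, were 28 with DESeq2 and 12 with RLE scaling. With files assigned by library name they were Ccna2, Ccnb1, Ccnb2, Mki67 and Tpx2. The count was 1 with the libraries of disagreeing name left out and 0 without the 2 libraries farthest from the median score. It was 0 without the 2 muscle-rich libraries, and 1 to 26 on leaving out each library. Of all genes, 3.81% were called higher with RLE scaling and 2.85% with files assigned by library name. Without the 2 libraries farthest from the median score the share was 1.39%. The shares of all genes for the other fits stand in the Results. The cause of these shifts in the count was not tested.

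Deviations of same-numbered libraries from their group means correlated from -0.734 to 0.428 in skin and from -0.311 to 0.230 in muscle. These correlations had no common sign, and so few libraries cannot decide whether the replicate numbers pair the samples. The fits with the replicate number as a block left out FLASH 4 of each tissue, and 0 members passed in each comparison. Their medians of CONV against the remaining sham and FLASH libraries were 0.56 in skin and 0.01 in muscle. In that comparison 6.46% of all genes passed in skin and 0.00770% in muscle. The block and the missing library cannot be told apart in these values.

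Named genes near 0 changed sign in CONV against the other 7. In skin, with the hair score added as a covariate, Mki67 was at -0.21, Ccna2 at -0.024 and Prc1 at -0.082. Without the muscle-rich libraries they were at -0.23, -0.14 and -0.15. Mki67 was at -0.027 when libraries of disagreeing name were left out, and Ccne2 was at 0.0025 with the replicate block, which left out FLASH 4. In muscle, without the libraries of disagreeing name, Ccne2 was at 0.0010, Kif23 at -0.32 and Top2a at 0.0011. Ube2c was at 0.0039 with the block, again without FLASH 4, and 0.094 without the keratin-holding libraries, where Mcm7 was also at 0.094. On leaving out each library, skin values ran from -0.18 to 0.27 for Mki67, -0.19 to 0.059 for Ccne2 and -0.085 to 0.13 for Prc1. Muscle values ran from -0.32 to 0.083 for Birc5, -0.090 to 0.080 for Ccne2, -0.85 to 0.33 for Kif23, -0.19 to 0.13 for Mcm7, -0.31 to 0.078 for Pcna, -0.017 to 0.099 for Rrm1 and -0.24 to 0.029 for Ube2c. Cause not tested.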
